A study of Mus musculus with 4 samples.

Results

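The Hox genes examined here are the protein-coding genes whose symbols read Hoxa, Hoxb, Hoxc or Hoxd followed by a number. Of 39 such genes in the mouse annotation (GRCm38/mm10), 38 were analysed and 1 was not analysed here. Each gene was given a window of its body with 5 kb on either side, and a deposited table of 484555 regions of DNA methylation was searched for regions that overlap a window. The search found 103 regions, each counted once, of which 49 lay in the windows of 2 or more genes. HoxA on chromosome 6 had 25 regions at 11 genes, HoxB on chromosome 11 had 36 regions at 10 genes, HoxC on chromosome 15 had 28 regions at 8 genes and HoxD on chromosome 2 had 14 regions at 9 genes.

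The study used whole-genome bisulfite sequencing of sorted hair matrix keratinocytes, dividing follicle cells that give rise to the hair shaft, from mice at postnatal day 4.5. There were 2 groups of 2 libraries each, Tet2/Tet3 DKO with Krt14-Cre, and WT. Cre driven by Krt14 acts in the basal epithelium of the skin and its appendages and in their descendants, so that other cells of these mice are expected to keep both genes. Whether both libraries of a group stem from different animals is not given, nor are sex and body site, and the protocol names both native and formaldehyde-fixed cells without saying which libraries came from which. The table gives, for each region, the authors' mean level of each group, and no value per library, read count or p-value. The error of a level and the depth behind it are therefore unknown, differences between the groups carry no test, and each is set beside the spread estimate that the authors' table gives for the region or beside all listed regions. The group means are not named in the table, and WT was taken as the group that comes first in the table's title, so every direction rests on that order. Bisulfite conversion cannot separate 5-methylcytosine from 5-hydroxymethylcytosine, so a level is the sum of both, and in sorted cells a level shared by all cells cannot be told apart from a mixture of methylated and unmethylated cells.

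Hox genes encode homeodomain transcription factors that give cells their position along the body axis. They stand in clusters in which gene order matches the order of expression along the body, with low-numbered (anterior) paralogs at the 3' end and high-numbered (posterior) paralogs at the 5' end, and paralogs of the same number in different clusters descend from a common gene. In skin, fibroblasts and epithelium keep Hox patterns that differ between body sites. Hox promoters lie in unusually dense CpG islands that are bound by Polycomb and Trithorax proteins, and TET enzymes oxidise 5-methylcytosine as a step in its removal. Genes of paralog positions 1 to 3 are called anterior here, those of positions 4 to 8 central and those of positions 9 to 13 posterior.

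Most of the Hox promoters with a sequence at hand were not overlapped by a listed region, and the regions over the others stood at different levels. RefSeq promoter sequences (GRCm38, 250 bases before to 50 after a start) were at hand for 22 of the 38 genes, 24 sequences in all, with a median of 14.5 CpGs against 7 over all 32851 promoters in that table. The sequences came mostly from HoxA and HoxD, with few from HoxB and HoxC. A listed region overlapped 5 of the 24, none of them from HoxD. The count of these 5 thus depends on which clusters had sequences, and the same share over all promoters was not counted. Hoxa5, Hoxb4 and Hoxb1, from these 5, are shown together with Hoxa7, in lower case with every CpG in capitals. Levels were read at CpGs, but the capitals do not mark which CpGs lay in a listed region. Hoxa5 and Hoxb4 represent promoters that were overlapped in part by a region of low level in both genotypes. Hoxb1 was the overlapped promoter whose region had the highest level. Hoxa7 lay 112 bp from a region that was higher in the DKO, without being overlapped by a listed region itself.

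Hoxa5 promoter, chr6:52204538-52204837, minus strand, 29 CpGs: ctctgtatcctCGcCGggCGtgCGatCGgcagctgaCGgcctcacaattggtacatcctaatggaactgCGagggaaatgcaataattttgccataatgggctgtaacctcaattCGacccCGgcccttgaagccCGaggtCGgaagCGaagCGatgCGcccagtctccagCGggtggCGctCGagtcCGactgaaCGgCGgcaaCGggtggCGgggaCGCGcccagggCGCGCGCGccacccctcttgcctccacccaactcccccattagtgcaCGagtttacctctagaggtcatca
Hoxb4 promoter, chr11:96318017-96318316, plus strand, 14 CpGs: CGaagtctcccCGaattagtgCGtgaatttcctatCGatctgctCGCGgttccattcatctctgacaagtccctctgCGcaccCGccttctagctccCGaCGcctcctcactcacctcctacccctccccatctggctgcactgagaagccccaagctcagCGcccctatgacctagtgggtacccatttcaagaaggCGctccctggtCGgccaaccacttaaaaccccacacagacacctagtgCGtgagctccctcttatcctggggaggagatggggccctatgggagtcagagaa
Hoxb1 promoter, chr11:96365508-96365807, plus strand, 10 CpGs: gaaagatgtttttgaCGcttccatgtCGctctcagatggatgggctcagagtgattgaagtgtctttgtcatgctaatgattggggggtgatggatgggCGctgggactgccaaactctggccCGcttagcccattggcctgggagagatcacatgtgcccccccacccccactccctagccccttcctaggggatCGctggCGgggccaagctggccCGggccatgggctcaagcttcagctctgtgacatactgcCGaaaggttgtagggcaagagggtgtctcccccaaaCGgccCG
Hoxa7 promoter, chr6:52218524-52218823, minus strand, 9 CpGs: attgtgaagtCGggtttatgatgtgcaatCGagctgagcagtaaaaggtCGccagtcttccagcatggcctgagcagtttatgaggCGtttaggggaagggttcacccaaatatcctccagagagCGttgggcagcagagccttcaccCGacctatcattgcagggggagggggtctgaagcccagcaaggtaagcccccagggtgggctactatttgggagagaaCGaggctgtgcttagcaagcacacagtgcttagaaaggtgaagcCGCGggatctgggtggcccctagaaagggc

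The region over the Hoxa5 promoter stood at 7.52% in the DKO and 5.95% in WT, and the region over the Hoxb4 promoter at 4.42% in the DKO and 3.02% in WT. The region over the Hoxb1 promoter stood at 47.8% in the DKO and 48.2% in WT. None of these 3 regions therefore differed by more than 2 points between the group means, although their levels ranged from near 0 to about the middle of the scale. The Hoxa5 and Hoxb4 regions covered only part of their promoters and ran past them, so no level of these promoters alone is given. The Hoxb1 region, chr11:96365523-96365818, spanned all 10 CpGs of its promoter and ended a few bases past it. Its level therefore stood mostly for that promoter.

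MicroRNAs lie between the Hox genes, and the related pair miR-10a and miR-10b is shown because a listed region ran across only the second. Capitals mark the seed (bases 2 to 8), which both share.

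mmu-miR-10b-5p, HoxD, within the annotated bodies of Hoxd3 and Hoxd4: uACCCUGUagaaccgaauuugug
mmu-miR-10a-5p, HoxB, within the annotated body of Hoxb3 and beside Hoxb4: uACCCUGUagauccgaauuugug

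The region across Mir10b stood at 53.6% in the DKO and 62.6% in WT, the greatest loss in HoxD. No listed region overlapped Mir10a. A region across Mir615, in HoxC, stood at 4.08% in the DKO and 3.48% in WT, and no listed region overlapped Mir196b or Mir196a-2.

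Over all Hox genes, 22 of the 103 regions (21.4%) were higher in the DKO by at least 20 percentage points, here called gains. Gains made up 22.9% of all listed regions, so the total number of gains at Hox genes was near the background. Their placement was uneven, with 12 in HoxB, 6 in HoxA, 4 in HoxC and 0 in HoxD. A loss of at least 10 points was seen in 4 Hox regions, 2 in HoxC and 1 each in HoxA and HoxB, where 2.54% of all listed regions showed such a loss. Lower levels in the DKO by any amount were given for 45 of the 103 regions, against 51.8% of all listed regions, and levels lower by at least 5 points for 27 of the 103, against 16.9% of all listed regions. The bound for listing was not symmetric. No extreme statistic in the authors' deposited table lay between -4.02 and 1.53, and a negative statistic goes with a higher level in the DKO. At Hox genes, positive statistics went with lower levels, nearly equal levels and levels higher by up to 7.91 points. Negative statistics went with levels higher by at least 15.7 points. Losses and small rises were thus listed from a smaller absolute statistic than larger rises. These whole-table shares of lower regions are the background for the counts of small losses given below, except beyond the last gain of a cluster. There gains are left out by choice, while the shares count all 484555 regions, of which 111028 were gains and 251195 were lower.

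**Figure D1:**
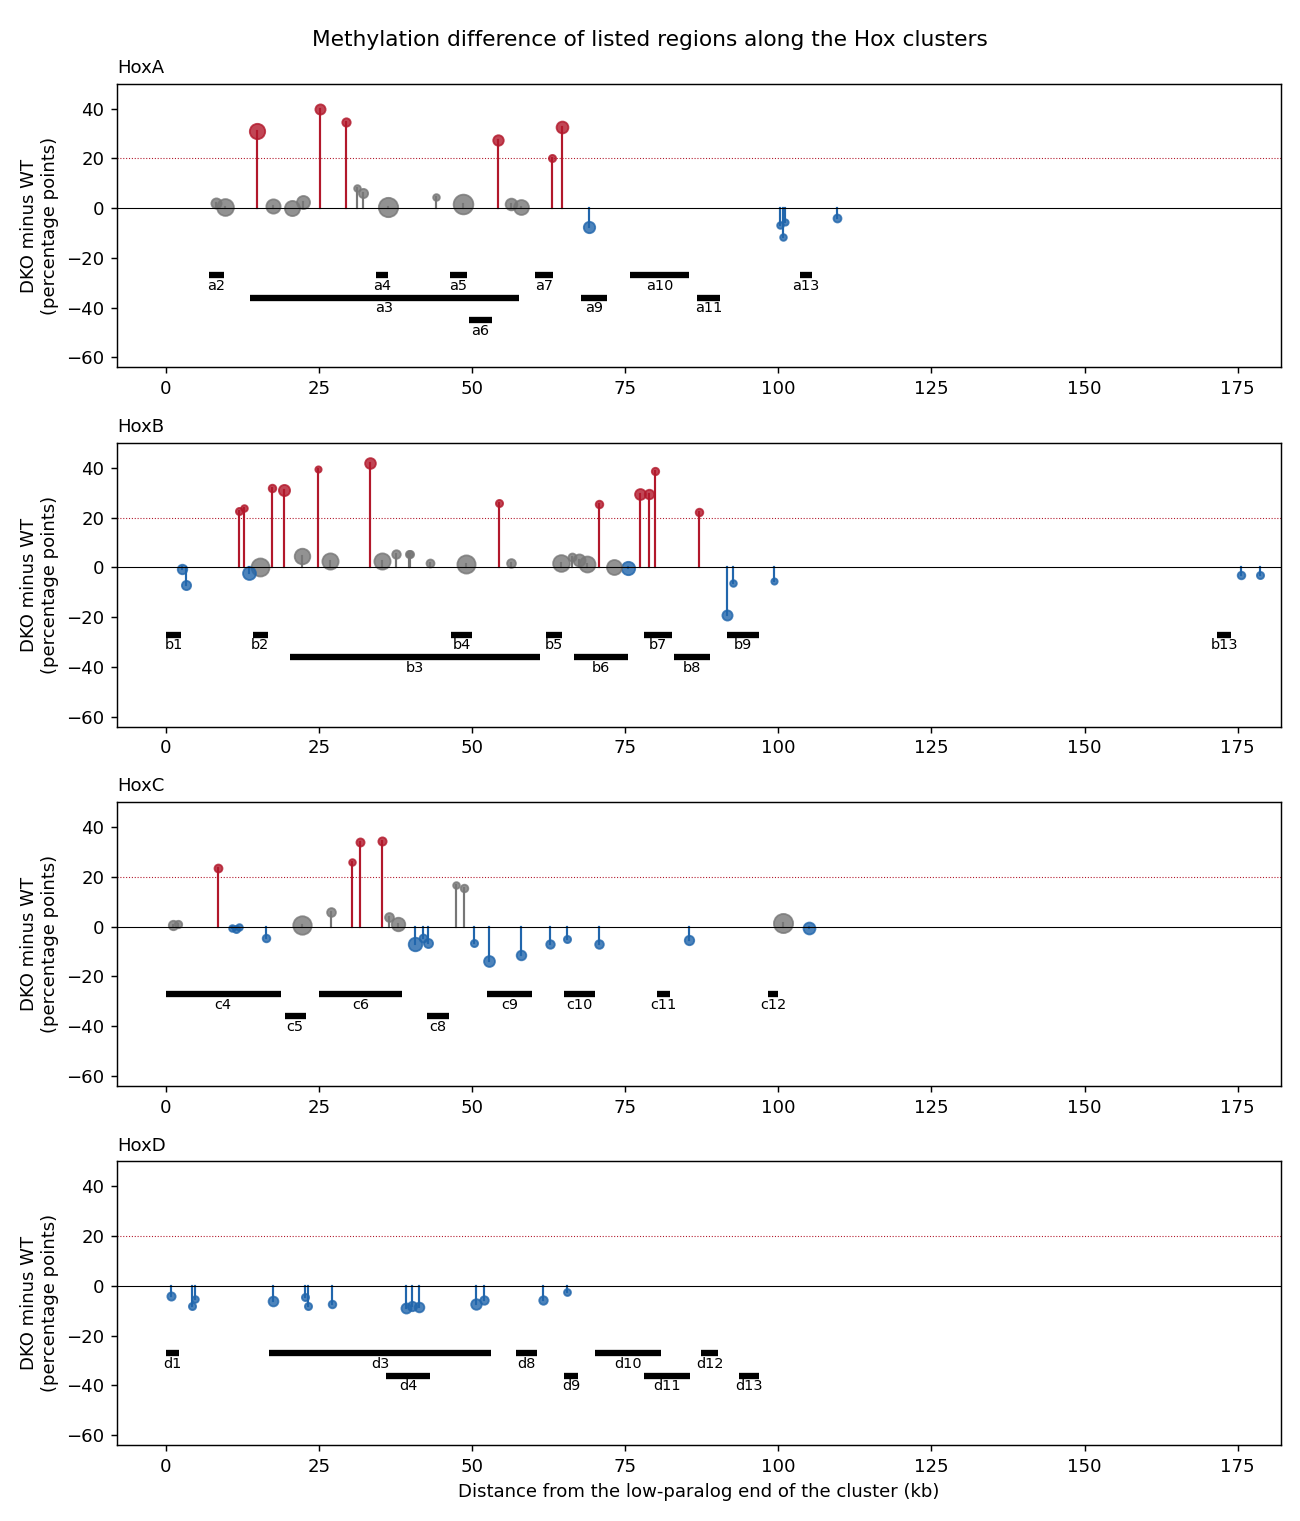
Each point is a listed region, placed by its distance in kb from the low-paralog end of its cluster, and the vertical axis gives DKO minus WT in percentage points, with larger points for regions of more cytosine positions and black bars for the gene bodies shown. Red points are gains of at least 20 points (dotted line), grey points were higher by less and blue points lower. Gains lie between 14.9 and 64.6 kb in HoxA, between 12.0 and 87.1 kb in HoxB and between 8.60 and 35.4 kb in HoxC, and HoxD has none.

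In HoxA, gains lay in and around Hoxa2 to Hoxa7, genes whose products pattern the hindbrain, neck and upper trunk. The greatest was in Hoxa3 at chr6:52180233-52180907, with 57.2% in the DKO and 17.2% in WT, a difference of 39.9 points where the spread estimate in the authors' deposited table was 3.96 points. A second at chr6:52184680-52185057, in the body of Hoxa3 and the window of Hoxa4, stood at 69.0% in the DKO and 34.5% in WT. A region of 122 positions in the body of Hoxa3 and the window of Hoxa2, chr6:52169363-52171104, stood at 59.3% in the DKO and 28.6% in WT. These 3 regions were at low to intermediate level in WT and above 55% in the DKO.

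The gain farthest toward the posterior end of HoxA, chr6:52219443-52220572, lay 870 bp beyond Hoxa7 with 76.2% in the DKO and 43.5% in WT, a difference of 32.7 points. By the choice of this boundary no gain could lie beyond it, and all 5 listed regions there were lower in the DKO. One lay in Hoxa9, a posterior gene also known for its role in blood stem cells, at 26.5% in the DKO and 34.1% in WT. The other 4 flanked Hoxa13, which acts in the digits and the urogenital tract, and the greatest loss of HoxA among them, chr6:52256173-52256174, stood at 39.2% in the DKO and 50.8% in WT over 2 positions. Hoxa10 and Hoxa11 had no listed region.

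HoxA also held regions of near-constant level. The region with the most positions in the cluster, 251, lay over part of Hoxa5 and was the low region over part of its promoter given above. The lowest WT level was at chr6:52172345-52173346 in Hoxa3, with 4.20% in the DKO and 3.47% in WT, and the highest at chr6:52199518-52199519 near Hoxa5, with 71.4% in the DKO and 67.0% in WT. The gain at chr6:52209374-52209985 stood at 60.3% in the DKO and 33.0% in WT. It lay in the annotated body of Hoxa3 and overlapped the windows, but not the bodies, of Hoxa5 and Hoxa6.

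HoxB, whose posterior genes are Hoxb9 and a distant Hoxb13, held 12 gains, against 6 in HoxA, and the greatest single difference. Among regions of at least 10 positions this order did not hold, with 4 gains in HoxB and 5 in HoxA. In Hoxb3, chr11:96334183-96335612 stood at 64.3% in the DKO and 22.3% in WT, a difference of 42.0 points beside a spread estimate of 3.48 points in the authors' deposited table. A single listed position at chr11:96343344, also in Hoxb3, stood at 54.5% in the DKO and 15.0% in WT. In Hoxb7, chr11:96288270-96288459 stood at 63.5% in the DKO and 24.9% in WT over 5 positions. Next to Hoxb2, a gene of hindbrain segments, chr11:96350769-96351124 stood at 49.6% in the DKO and 17.8% in WT. Thus the gains ran through the anterior and central genes of HoxB, and gains covered 12.7% of the Hoxb2 window and 10.3% of the Hoxb7 window.

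The last gain toward the posterior end of HoxB, chr11:96281014-96281226, lay in Hoxb8 with 53.1% in the DKO and 30.9% in WT. By the choice of this boundary no gain could lie beyond it, and all 5 listed regions there were lower in the DKO, as in HoxA. The first of them, chr11:96276014-96277120 at the end of Hoxb9, stood at 34.2% in the DKO and 53.5% in WT over 28 positions. Its loss of 19.3 points, -5.85 times the spread estimate of the authors' deposited table, was the greatest at any Hox gene and was number 522 from the lowest difference among all listed regions. At Hoxb13, a marker of the tail and prostate, the greatest difference was -3.26 points. At the other end of the cluster Hoxb1, a hindbrain gene, had no gain in its window, and chr11:96364723-96365083 stood at 69.5% in the DKO and 76.6% in WT, the highest WT level of the cluster.

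In the window of Hoxb4, known for its effect on blood stem cells, a region of 4 positions in the body of Hoxb3, 4470 bp from Hoxb4, had a gain of 26.0 points. With at least 10 positions or the gene body alone, the largest difference at Hoxb4 was 1.40 points. Hoxb5 differed by at most 4.20 points. The lowest WT level of HoxB lay over Hoxb5 at chr11:96303078-96304468, with 3.73% in the DKO and 2.10% in WT. The region with the most positions, 200, was the low region over Hoxb4 given above.

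HoxC has no paralogs of positions 1 to 3. Its gains were restricted to Hoxc6, a gene of the thorax, and Hoxc4 among the 8 genes analysed. The gains in Hoxc6 started from the lowest WT levels of any Hox gains. At chr15:103001317-103001653 the level was 43.6% in the DKO and 9.31% in WT, and at chr15:103004952-103005342 it was 43.9% in the DKO and 10.1% in WT. The third, chr15:103006526-103006527, stood at 30.3% in the DKO and 4.44% in WT over 2 positions. At Hoxc4, chr15:103028153-103028354 stood at 40.6% in the DKO and 17.2% in WT. None of the 4 gains of HoxC reached 45% in the DKO, whereas in HoxA and HoxB levels up to 76.2% and 65.8% were reached.

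The gain at chr15:103001317-103001653 was the last toward the posterior end of HoxC, and by the choice of this boundary no gain could lie beyond it. The share of lower regions among all listed regions other than gains was not counted, so the next count has no background. Beyond the boundary, 11 of 16 regions of HoxC were lower in the DKO. Exceptions were a pair of short regions between Hoxc8 and Hoxc9, with differences of 16.8 and 15.7 points, and 3 regions higher by less than 4 points. The posterior gene Hoxc9 held the greatest losses of the cluster, with 27.0% in the DKO and 40.7% in WT at chr15:102983878-102984412 and 47.8% in the DKO and 59.0% in WT at chr15:102978730-102979010. Around Hoxc8, regions lower by at least 5 points covered 15.0% of the window, the highest share of any Hox gene. Hoxc10 and Hoxc11 had only regions that were lower in the DKO, by up to 7.04 and 5.17 points. At Hoxc12 the region with the most positions in the cluster, 232, stood at 5.51% in the DKO and 3.96% in WT. Hoxc5 differed by at most 5.80 points. The lowest WT level of HoxC was at chr15:102998283-102999737 in Hoxc6, with 3.24% in the DKO and 2.10% in WT, and the highest at chr15:103025406-103025490 in Hoxc4, with 70.9% in the DKO and 72.0% in WT.

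In HoxD, which patterns limbs and genitalia through its posterior genes, all 14 listed regions were lower in the DKO, with differences from -9.02 to -2.43 points, and none was a gain. A lower level by at least 5 points was found in 11 of them. The 3 greatest losses lay around Hoxd4, a neck and hindbrain gene, and Hoxd1. The region across Mir10b at chr2:74725747-74726259 had a difference of -9.02 points beside a spread estimate of 3.43 points in the authors' deposited table. Its neighbour chr2:74723514-74724069 stood at 50.9% in the DKO and 59.3% in WT, and chr2:74760782-74761028 near Hoxd1 at 43.2% in the DKO and 51.4% in WT. Against the spread estimates of the authors' deposited table, 11 of the 14 differences were past 1 spread and 3 past 2 spreads, so most HoxD losses were small for single regions although they shared a direction.

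The levels of the listed HoxD regions were mostly intermediate to high. The highest WT level of the cluster was at chr2:74742332-74742488, with 70.2% in the DKO and 74.8% in WT, and the lowest at chr2:74713065-74713197, with 12.7% in the DKO and 18.5% in WT. The region with the most positions, 33, stood at 26.3% in the DKO and 33.7% in WT, and the smallest loss, a difference of -2.43 points, lay in Hoxd9, in the window it shares with Hoxd10. Hoxd8 and Hoxd9 had losses of up to 5.56 points, Hoxd3 shared its greatest loss with Hoxd4, and Hoxd11, Hoxd12 and Hoxd13 had no listed region.

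**Figure D2:**
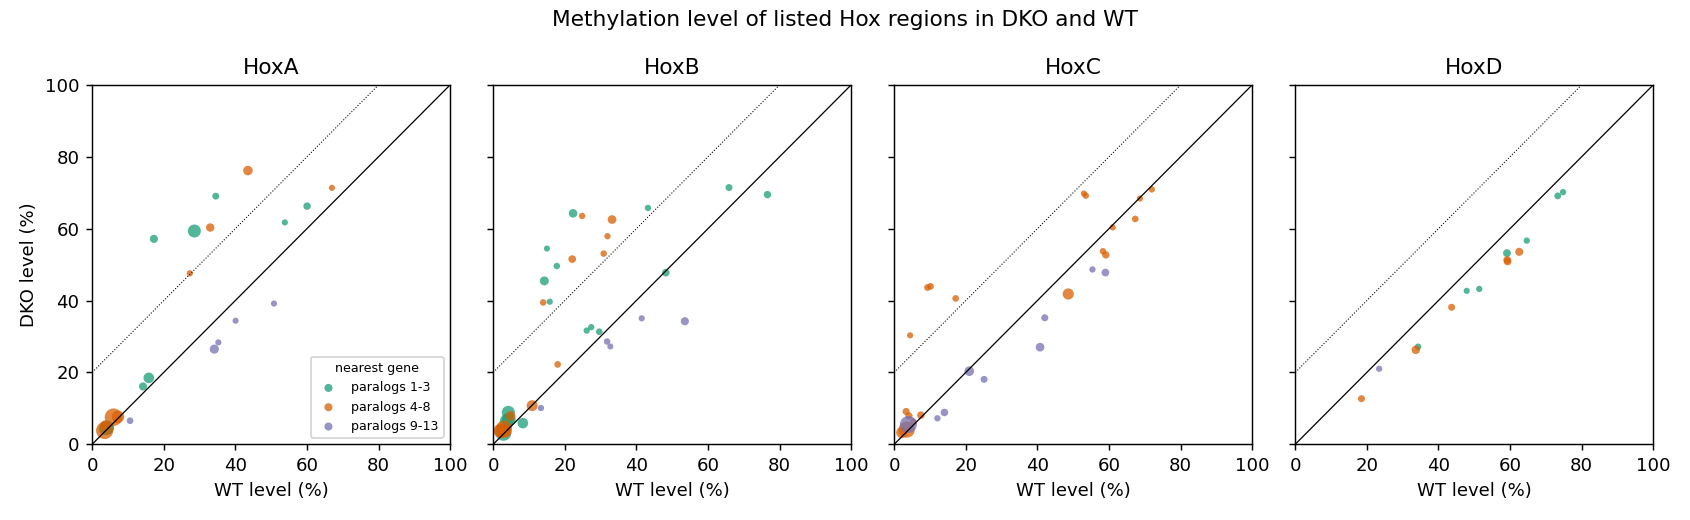
Each point is a listed region, with its WT level on the horizontal and its DKO level on the vertical axis, both in percent, 1 panel per cluster, and the colour gives the paralog group of the nearest gene and the size grows with the number of positions. The solid line marks equal levels and the dotted line a gain of 20 points. Regions nearest posterior genes lie on or below the solid line except 1 at Hoxc12, and every HoxD region lies below it.

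Gains, small losses and nearly constant regions were mixed in HoxA, HoxB and HoxC. The median difference was 1.56 points in HoxA, 2.82 in HoxB, -0.442 in HoxC and -6.58 in HoxD. The regions of HoxA had a median level of 26.5% in the DKO and 17.2% in WT. Those of HoxB had 32.1% in the DKO and 17.9% in WT, those of HoxC 37.9% in the DKO and 23.0% in WT, and those of HoxD 47.0% in the DKO and 55.3% in WT. The listed regions of HoxD thus had the highest median level of the 4 clusters in both genotypes, and HoxD was the cluster in which the DKO median was below that of WT. These medians depend on which regions were listed. Regions under 10% in both genotypes numbered 9 in HoxA, 11 in HoxB, 7 in HoxC and 0 in HoxD, so the medians do not give the level of a whole cluster.

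By extent, gains covered 4.07% of the joined gene windows in HoxA, 4.10% in HoxB, 0.896% in HoxC and 0% in HoxD. Regions lower by at least 5 points covered 0.566% in HoxA, 1.25% in HoxB, 3.61% in HoxC and 3.60% in HoxD. HoxA and HoxB thus had the higher coverage by gains, and HoxC and HoxD the higher coverage by losses. Regions lower by at least 5 points covered 2.15% of a Hox gene's window on average, against 0.720% over all protein-coding genes, and both medians were 0%. Gains covered 2.18% of a Hox gene's window on average (median 0%), against 2.67% over all 21900 protein-coding genes (median 1.29%).

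**Figure D3:**
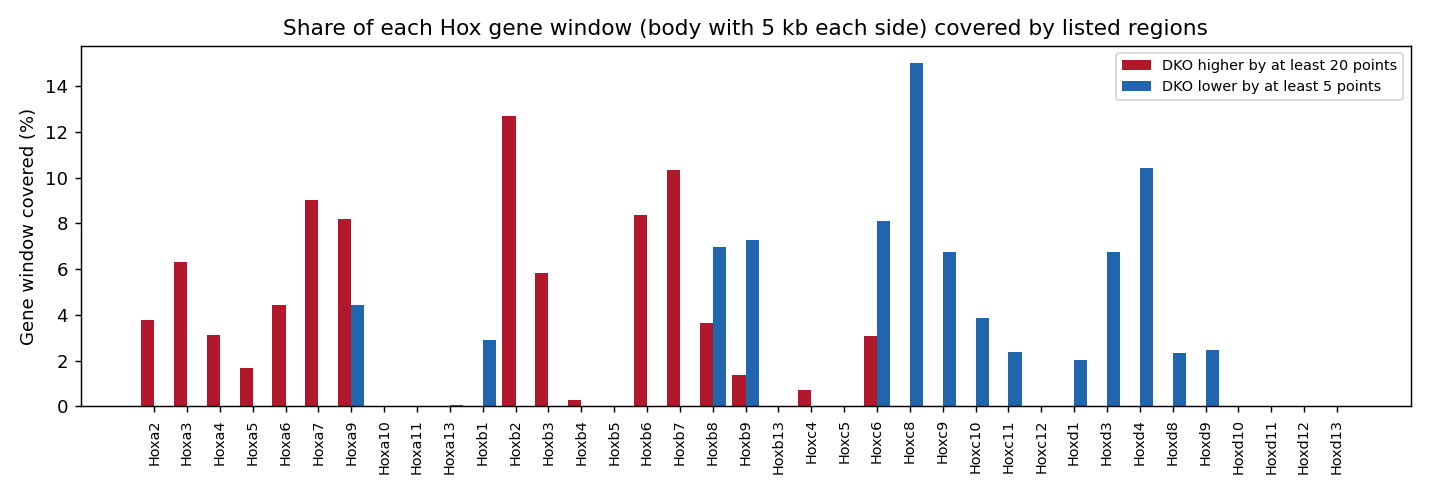
Bars give the percent of each gene window (body with 5 kb on either side) covered by gains of at least 20 points (red) and by regions lower in the DKO by at least 5 points (blue), for the genes shown, in cluster order. Hoxb2 has the highest coverage by gains (12.7%) and Hoxc8 the highest by losses (15.0%).

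By gene, 16 of the 38 Hox genes had a gain in their window, while 64.4% of all protein-coding genes did. A listed region of any kind was found at 33 of the 38, and 5 posterior genes had none, where 88.6% of all protein-coding genes had a listed region. Genes with a gain were 7 of 11 in HoxA, 7 of 10 in HoxB, 2 of 8 in HoxC and 0 of 9 in HoxD. Along the paralog groups they were 4 of 8 anterior genes, 10 of 15 central genes and 2 of 15 posterior genes. Losses of 10 points or more touched the windows of 4 genes, 3 of them posterior, where 8.5% of all protein-coding genes had such a loss, and 11 genes had only regions that were lower in the DKO, 6 of them posterior and 6 of them in HoxD, where 17.5% of all protein-coding genes had only such regions.

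Paralog positions were compared over the clusters. With a shared region given to each gene whose window it touches, anterior genes had 51 regions with 11 gains, central genes 52 regions with 14 gains and posterior genes 25 regions with 3 gains. The median difference was 1.60 points at anterior genes, 1.60 at central genes and -5.51 at posterior genes. The 3 gains in posterior windows all lay in the windows of Hoxa9 and Hoxb9 and were shared with Hoxa7 or Hoxb8. Positions 10 to 13 had no gain, but they held only 4, 1, 2 and 6 listed regions in turn. The 5 genes without a listed region were all at these positions. When each region was given to its nearest Hox gene instead, a choice added after the values were seen, posterior genes had 20 regions with 0 gains, of which 19 were lower in the DKO (51.8% over the table) and the other, at Hoxc12, was higher by 1.55 points. All 4 losses of at least 10 points then lay nearest a posterior gene, Hoxa13, Hoxb9 and Hoxc9. Since only 1 of the 20 posterior regions was in HoxD, this placement was not that of HoxD alone, and since 13 of the 14 HoxD regions lay nearest Hoxd1 to Hoxd8, the absence of gains in HoxD was not confined to its posterior genes. Many of the 20 posterior regions held fewer than 10 positions, some only 1 or 2, and the nearest-gene count was not repeated without them. With shared regions given to each gene and at least 10 positions, the median difference at posterior genes was -6.85 points.

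**Figure D4:**
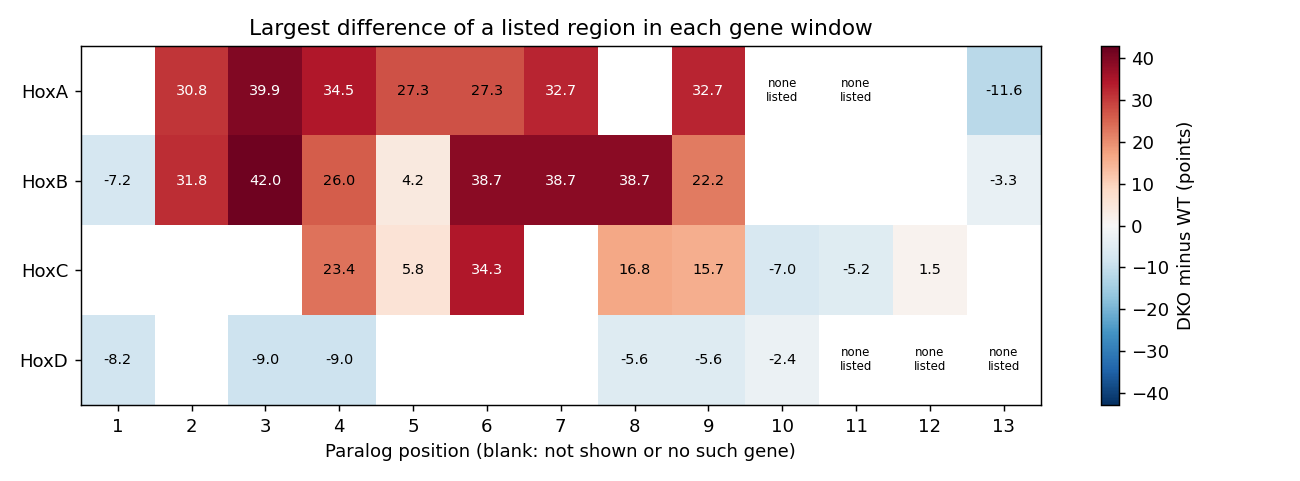
Each cell gives, for a gene at its cluster (row) and paralog position (column), the difference DKO minus WT in percentage points of the listed region in its window with the largest absolute difference, red for higher and blue for lower in the DKO. Values above 20 points stand at positions 2 to 9 of HoxA, HoxB and HoxC, those at position 9 being shared with Hoxa7 and Hoxb8, while positions 10 to 13 hold values from -11.6 to 1.55 and the whole HoxD row lies between -9.02 and -2.43.

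Gains were also counted among regions of like WT level. Among all 118438 regions between 20 and 60% in WT, 79.1% were gains and 4.97% were lower by at least 5 points. Of the 45 such regions at Hox genes, 12 were gains (26.7%) and 22 were lower by at least 5 points (48.9%). The gains were 5 of 10 such regions in HoxA, 7 of 15 in HoxB, 0 of 11 in HoxC and 0 of 9 in HoxD. By nearest gene they were 4 of 13 at anterior, 8 of 17 at central and 0 of 15 at posterior genes, and all 15 posterior regions were lower. In narrower bands of WT level, 10 of 22 Hox regions from 20 to 40% were gains (45.5%, where 85% of all listed regions in that band were), and 2 of 23 from 40 to 60% (8.70%, where 76% were). Central genes did not stand apart in the first of these bands, with 7 of 8 regions gained. From 10 to 20% there were 8 gains in 17 Hox regions (60.1% over the table), from 0 to 10% there were 2 in 29 (4% over the table), and from 60 to 80% there were 0 in 12 (9.34% over the table). The smaller share of gains at Hox genes was therefore plainest for WT levels of 40 to 60%. This is a description without a test, since neighbouring regions of a cluster are not independent.

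Gains at Hox genes also ended lower than gains elsewhere. The 22 Hox gains had a median level of 53.8% in the DKO and 22.2% in WT, where all 111028 gains had 76.3% in the DKO and 45.6% in WT. The median size was similar, 30.1 points at Hox genes and 28.4 points over all gains. A level of 60% in the DKO was reached by 7 of the 22 Hox gains (31.8%) and by 88.5% of all gains. Regions lower by at least 5 points at Hox genes also stood at lower levels than those elsewhere, with medians of 38.1% in the DKO and 47.9% in WT over the 27 at Hox genes and 70.9% in the DKO and 78.5% in WT over all of them.

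Another 27 of the 103 Hox regions stood under 10% in both genotypes, a class that made up 1.63% of the whole table. They were long, with a median of 1143 bp and 116 positions, 9 of them in HoxA, 11 in HoxB, 7 in HoxC and 0 in HoxD, and 22 touched the body of their nearest Hox gene. Their median level was 5.32% in the DKO and 3.94% in WT. The DKO was higher in 24 of the 27, by a median of 1.15 points over the 27, whereas over all 7902 such regions it was higher in 4410, by a median of 0.0871 points. The difference was past the spread estimate of the authors' deposited table in 2 of the 27, both in Hoxc6, and the greater was at chr15:103009747-103009906 with 9.12% in the DKO and 3.32% in WT.

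Gains often lay close to such low regions, which were themselves more frequent at Hox genes than over the table. The distances below were not adjusted for that. Of the 22 Hox gains, 11 lay within 2 kb of a listed region under 10% in both genotypes, and the median distance was 2535 bp, against 6.54% within 2 kb and a median of 66845 bp over all gains on chromosomes that hold such a region. In Hoxb3, for example, the region with the greatest difference lay 583 bp from a region of 143 positions at 6.43% in the DKO and 3.79% in WT. Of the 27 Hox regions lower by at least 5 points, 1 lay within 2 kb of a low region, and the median distance was 41621 bp, against 0.192% within 2 kb and a median of 469186 bp over all regions lower by at least 5 points. By their medians, gains and losses at Hox genes thus both lay nearer to low regions than those of the whole table. HoxD held 11 of these 27 regions and no low region.

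Genes that act with or on Hox genes were examined with the same counts. Of 9 genes for TALE homeodomain proteins, which bind DNA together with Hox proteins, 8 had a gain, and gains covered a median of 4.27% of their windows, where 64.4% of all protein-coding genes had a gain and the median coverage was 1.29%. Meis1 had a region at 70.0% in the DKO and 20.8% in WT. Of 11 genes for proteins that set Hox chromatin, in the Polycomb and Trithorax groups or at boundaries, 10 had a gain, with a median coverage of 2.62%. Cbx2 had a region at 82.7% in the DKO and 38.1% in WT, and Rnf2 a region at 77.6% in the DKO and 33.2% in WT. Of 8 relatives of the Hox genes in the ParaHox, Cdx and Evx families, 2 had a gain and the median coverage was 0%, as for the Hox genes. These 2 were Cdx1, with 70.4% in the DKO and 44.8% in WT, and Cdx4, with 71.3% in the DKO and 46.9% in WT.

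Markers of the sorted cells and of other skin cells were counted in the same way, since methylation gives no direct reading of which cells were present. Of 6 matched genes of hair matrix and epithelium, 5 had a gain and the median coverage was 10.3%. Gains were also listed at 5 of 5 fibroblast markers, 4 of 5 melanocyte markers, 3 of 3 immune markers and 2 of 3 endothelial markers, with median coverages of 1.95%, 2.67%, 3.21% and 3.53%. With 3 to 6 matched genes a list and a gain at 64.4% of all protein-coding genes, these counts of genes set no list apart. The median coverage was highest for the genes of hair matrix and epithelium, where single genes ranged from 0 to 28.9%. Over all protein-coding genes the median was 1.29%, and the difference in coverage was not tested. The part that other cells play in the levels at Hox genes was not tested.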

How the data were processed

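Genomic DNA of 4 libraries (2 Tet2/Tet3 DKO, 2 WT) was bisulfite-converted and sequenced, per the labels' protocols. Per the submitters' processing notes, Trim Galore trimmed the reads and Bismark aligned them to GRCm38 (mm10). Which tool called the regions, and with what filters, is not given in the sources used here. Per the file headers, the deposited table gives each region's mean methylation in each group as a fraction, converted here to percent, and a statistic with its spread estimate, used here as a score of the authors with no fixed range. The fraction scale of the spread estimate was turned into percentage points. The mean statistic was offset from the ratio of difference to spread by a median of 1.57. A region's positions count the strands of a CpG mostly apart. The table holds no reads or values per library, so depth is unknown and the planned logistic model was not run.

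Regions were joined to gene bodies with 5 kb on either side from a RefSeq gene table of GRCm38, with Python 3.11.15, pandas 2.3.3 and numpy 2.4.6, after the joins and counts had been tested on simulated regions. For the nearest gene, bodies of Hoxa3, Hoxb3, Hoxd3 and Hoxd10 that reach past the next higher paralog were ended there. Members, lists and thresholds were chosen with earlier results of these data known. Regions named are, per cluster, the 4 greatest gains, the 2 greatest losses, the most positions and the lowest and highest WT level, per gene the largest absolute difference, and per list of cofactors, relatives and regulators the 2 genes with the largest difference; others, such as those over promoters or at the end of a run of gains, were named after their values were seen. Some results that this rule would name are not reported here. Alternatives were other minimum differences, positions, windows, overlaps, merging and weights.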

Additional observations from a re-analysis of the deposited data

How the results depend on the processing

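The cause of each change below was not tested. HoxD had 0 gains under every setting run. These were a minimum of 10 or 30 points, at least 10 positions and the gene body alone. Others were 10 kb on either side, region midpoints, and regions within 500 bp merged. Only the window of 10 kb could have brought in a gain, since every HoxD region of the main setting was lower in the DKO. The 0 under the other settings was thus fixed beforehand. With a minimum of 30 points, the gains numbered 11 in all, 5 in HoxB (2.65% of its windows), 2 in HoxC, 7 at anterior, 5 at central and 1 at posterior genes. With at least 10 positions, they numbered 10 in all, 4 in HoxB (5 in HoxA), 1 in HoxC (0.324% of its windows), 6 at anterior, 6 at central and 1 at posterior genes. The median levels were then 11.8% in the DKO and 10.8% in WT for HoxA, 8.37% in the DKO and 6.57% in WT for HoxB, and 18.1% in the DKO and 14.0% in WT for HoxC. The largest difference turned to -19.3 points at Hoxb9, -6.79 at Hoxc8 and -13.7 at Hoxc9.

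With gene bodies alone, gains numbered 7 in HoxB, 7 at anterior, 9 at central and 0 at posterior genes, and covered 1.66% of HoxC. The median DKO levels were 18.5% in HoxA, 30.3% in HoxC (10.1% in WT) and 51.3% in HoxD, and the largest difference turned to -7.65 points at Hoxa9, -19.3 at Hoxb9, -6.42 at Hoxc8 and -13.7 at Hoxc9. With 10 kb on either side, the WT median was 22.1% in HoxB and 36.1% in HoxC, and the largest difference at Hoxb1 was 22.5 points. With merging, the medians were 32.8% in the DKO and 19.1% in WT for HoxC, and 50.2% in WT for HoxD. Means weighted by positions were 15.7% in the DKO and 10.7% in WT for HoxA, 12.9% in the DKO and 8.83% in WT for HoxB, 16.1% in the DKO and 16.2% in WT for HoxC, and 51.0% in WT for HoxD. The weighted mean difference at posterior genes was 0.252 points, against a median of -5.51, with the region of 51 positions that Hoxa9 shares with Hoxa7 included. With each region given to its nearest gene, an alternative added after the data were seen, posterior genes had 0 gains. Of the other values recomputed, 137 of the main kind and 91 of single genes moved by less than their own limit, and 24 of single genes moved by more without turning sign.

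No paired analysis was possible because the table gives group means and no value per library. For the same reason leaving out a replicate was not run. Depth is unknown, and so is its limit on a level.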
